A study of Arabidopsis thaliana with 6 samples.

Results

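Transcripts of 9 genes that receive and pass on the gibberellin signal were followed in root tips of wild-type Arabidopsis thaliana and of scl28-3 plants. The scl28-3 allele affects SCL28 (AT1G63100), annotated as a GRAS family transcription factor. The 9 genes were chosen by locus from the 21125 genes in the deposited tables. They are the DELLA genes GAI (AT1G14920), RGA (AT2G01570), RGL1 (AT1G66350), RGL2 (AT3G03450) and RGL3 (AT5G17490), the receptor genes GID1A (AT3G05120), GID1B (AT3G63010) and GID1C (AT5G27320), and the F-box gene SLY1 (AT4G24210). All 9 were present in every library and all 9 passed the filter on low values. Each genotype had 3 libraries, given as biological replicates, each from about 300 root tips of about 2 mm taken from 6-day-old plants that grew on agar plates in continuous light at 21 °C. The labels give no other allele, transgene or treatment, and they do not describe the lesion in scl28-3.

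Gibberellin is a growth hormone that promotes cell division and elongation in the root. DELLA proteins are nuclear members of the GRAS family that hold growth back by binding transcription factors. A GID1 receptor that has bound gibberellin binds the DELLA protein, and the SCF ubiquitin ligase that carries SLY1 then marks the DELLA protein for destruction. The signal therefore acts mainly on the DELLA proteins, which were not measured here, and the values below are transcript levels. Genes of hormone synthesis and some receptor genes are also known to be under feedback, in which transcripts rise when the signal is weak.

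The DELLA motif near the start of these proteins is part of the region that the receptor recognises. The coding sequence that begins with it is shown for the 5 DELLA genes, from the RefSeq annotation of TAIR10.1, because it shows how alike and how distinguishable these transcripts are. Each stretch is 72 bases long, reads 5′ to 3′ on the coding strand, and has the 5 codons at the motif position in capitals.
GAI: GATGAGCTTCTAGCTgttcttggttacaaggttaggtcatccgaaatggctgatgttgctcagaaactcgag
RGA: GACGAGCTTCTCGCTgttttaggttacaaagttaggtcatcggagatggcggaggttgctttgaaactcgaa
RGL1: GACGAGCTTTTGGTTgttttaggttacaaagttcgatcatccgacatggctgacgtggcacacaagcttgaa
RGL2: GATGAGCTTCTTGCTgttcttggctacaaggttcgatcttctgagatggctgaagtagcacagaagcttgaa
RGL3: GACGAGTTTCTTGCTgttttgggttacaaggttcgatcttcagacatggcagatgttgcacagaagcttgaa
The stretches lie at chr1:5149495-5149566 on the plus strand for GAI, chr2:257144-257215 on the minus strand for RGA, chr1:24748420-24748491 on the plus strand for RGL1, chr3:821079-821150 on the minus strand for RGL2 and chr5:5765717-5765788 on the minus strand for RGL3. Against GAI, the stretch differed at 12 of 72 bases in RGA, 13 in RGL2, 15 in RGL3 and 17 in RGL1. Within the capitals alone, RGL2 differed from GAI at 1 base, RGA at 2, RGL3 at 3 and RGL1 at 4. The capitals do not all encode the same amino acids. In RGL1 the last codon is GTT (valine) in place of GCT (alanine). In RGL3 the middle codon is TTT (phenylalanine) in place of CTT (leucine).

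The receptors belong to the hydrolase family, and the stretch around their Gly-Asp-Ser motif marks that fold. It is shown for the 3 receptor genes over 60 bases of coding sequence, with the 6 motif codons in capitals.
GID1A: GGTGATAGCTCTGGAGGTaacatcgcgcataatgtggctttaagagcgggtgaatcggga
GID1B: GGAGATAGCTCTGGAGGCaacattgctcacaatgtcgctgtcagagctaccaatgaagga
GID1C: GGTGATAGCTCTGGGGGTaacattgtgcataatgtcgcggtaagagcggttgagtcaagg
These lie on the plus strands at chr3:1431814-1431873, chr3:23290486-23290545 and chr5:9630270-9630329, in the order shown. Against GID1A, GID1C differed at 11 of the 60 bases and GID1B at 17. Over the whole coding sequence GID1A and GID1C were 83.8% identical, while GID1B was 70.2% identical to GID1A and 70.4% to GID1C. Among the DELLA genes, GAI and RGA were 81.5% identical and RGL2 and RGL3 76.6%, and the other pairs were between 65.5% and 69.1%.

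Reads of these related genes can be told apart over almost all of their length. No exon stretch of 31 bases in the 5 DELLA genes, GID1B or SLY1 occurs a second time in the nuclear genome of TAIR10.1, and in GID1A and GID1C 99.7% of such stretches are unique. GID1A and GID1C share 5 of them, in a single run of 35 identical bases. No member overlaps another annotated gene, so counting without strand would not mix it with an antisense partner.

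All 5 DELLA genes are annotated without an intron. GAI lies on chromosome 1 from 5148982 to 5151415, RGL1 on chromosome 1 from 24748105 to 24750186, RGA on chromosome 2 from 255247 to 257568, RGL2 on chromosome 3 from 819337 to 821652 and RGL3 on chromosome 5 from 5763989 to 5766246. The receptor genes each have 1 intron, with GID1A on chromosome 3 from 1430363 to 1432844, GID1B on chromosome 3 from 23289243 to 23291486 and GID1C on chromosome 5 from 9628990 to 9631291. SLY1 lies on chromosome 4 from 12563279 to 12564482 and has no intron.

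Depth, recovered from the deposited values, ran from 10399899 to 11572901 reads in wild type and from 13996534 to 16780424 reads in scl28-3. Every scl28-3 library was deeper than every wild-type library. SCL28 itself ranged over 42.4 to 44.5 CPM, a read count scaled to the size of its library, in wild type and over 13.7 to 17.7 CPM in the mutant. It fell by 1.48 ± 0.12 (SE) on the log2 scale, with a limma adjusted p of 0.0022. The 5 root meristem markers summed to 97.8 to 120 CPM across wild type and 97 to 119 CPM across scl28-3, and 5 genes of leaf photosynthesis summed to between 17.4 and 30.8 CPM over the 6 libraries. Wild-type library 1 stood apart from the rest, at -35.6 on the first principal component (44.3% of the variance), where the other 5 libraries were between -9.4 and 19.5. The sum of the 9 endodermis markers was also lowest in that library, at 226 CPM there, 345 and 428 CPM in wild-type libraries 2 and 3, and 361, 365 and 514 CPM in the mutant libraries. SCR, of the same list, went the other way and was highest there, at 78.4 CPM against 53 to 66.8 CPM elsewhere. All the other markers of that list had their lowest value in wild-type library 1. Root tips are a mixture of cell types, and in such bulk samples fewer cells of a type and less RNA per cell cannot be told apart.

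The genotype comparison asked whether the scl28-3 allele goes with a change in the transcripts of this pathway. None of the 9 members was called different between genotypes at an adjusted p under 0.05, with limma, with edgeR's quasi-likelihood test or with DESeq2. Over all 17879 genes tested limma called 0.0727%, all of them lower in the mutant, edgeR 0.0783% and DESeq2 0.101%. A limma fit with the library number as a block called 0 members as well, where it called 0.358% of all genes. Before adjustment, 3 members had a p under 0.05 with limma and the same number with edgeR, against 4.37% of all genes tested in either fit, and 1 with DESeq2, against 2.7%. Those 3 in the limma fit were GID1A, RGL2 and GAI, each higher in scl28-3. In the limma fit 7 members were higher and 2 lower, their median log2 difference was 0.11, and all genes tested had 52.1% higher and a median of 0.01.

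**Figure D1:**
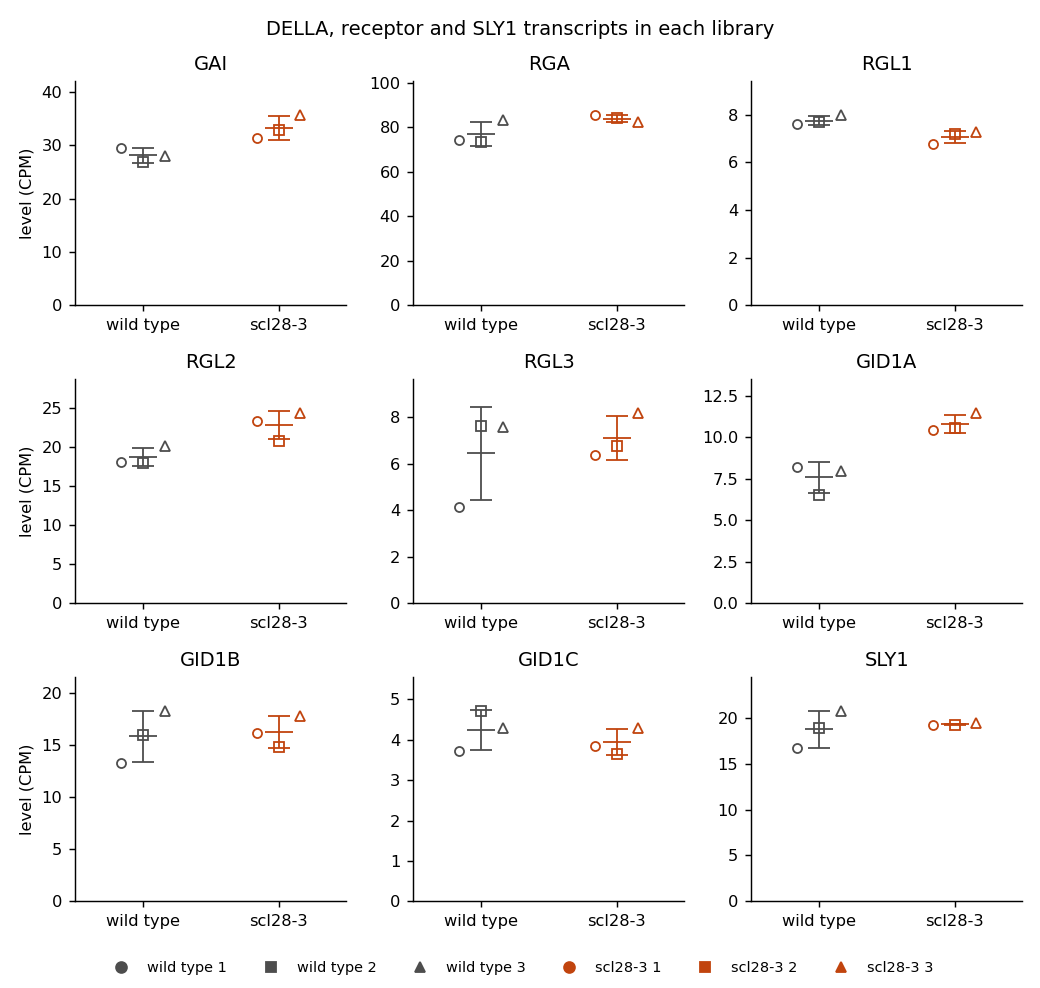
Level of each of the 9 members in CPM (vertical axes, each from 0) in the 3 wild-type libraries (grey) and the 3 scl28-3 libraries (orange), with marker shapes for libraries 1, 2 and 3. Horizontal bars are means and error bars are SD over 3 libraries. The genotypes are apart for GAI, RGL1, RGL2 and GID1A and overlap for the other 5 genes.

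GAI, known from a dwarf allele that no longer responds to gibberellin, was slightly higher in each scl28-3 library than in each wild-type library. Its levels were 29.55, 26.83 and 27.9 CPM in the wild-type libraries and 31.29, 32.79 and 35.58 CPM in the scl28-3 libraries. Averages came to 28.1 ± 1.37 and 33.2 ± 2.18 CPM (SD, n = 3 each). Fitted on the log2(CPM + 0.5) scale the difference was 0.22 ± 0.09 (SE), with a limma p of 0.0438 before adjustment and an adjusted p of 0.994. In all, 4 of the 9 members had genotypes that did not overlap, as had 10.4% of all genes tested. Upward these were GAI, RGL2 and GID1A, against 6.19% of all genes tested, and downward RGL1, against 4.22%.

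RGA, the closest relative of GAI and the most abundant DELLA transcript, was at 74.4, 73.56 and 83.27 CPM in wild type, against 85.37, 84.17 and 82.18 CPM in the mutant. The third wild-type library lay within the range of the mutant libraries, and the genotypes overlapped. With means of 77.1 ± 5.38 and 83.9 ± 1.61 CPM the log2 difference was 0.11, and its 95% interval of -0.08 to 0.29 spans 0.

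RGL2, known as the main DELLA repressor of seed germination, was at 18.06, 17.98 and 20.09 CPM in the wild-type libraries and 23.36, 20.76 and 24.31 CPM in the scl28-3 libraries. The lowest mutant library lay just above the highest wild-type library. Averages came to 18.7 ± 1.2 and 22.8 ± 1.84 CPM, and the log2 difference of 0.26 ± 0.10 (SE) had a limma p of 0.03 before adjustment and an adjusted p of 0.994.

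RGL1, a DELLA gene with known roles in flower and seed development, was the 1 DELLA gene with a lower mean in scl28-3. Its levels were 7.6, 7.69 and 7.98 CPM in wild type, against 6.79, 7.18 and 7.27 CPM in the mutant, so that the genotypes were apart by a small margin. Each value rests on only 80 to 122 reads, and the log2 difference of -0.14 (95% interval -0.41 to 0.12) did not pass, with a limma p of 0.26 before adjustment.

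RGL3, the DELLA gene best known from jasmonate and stress responses, varied most within wild type relative to its mean. It was at 4.15 CPM in wild-type library 1, at 7.6 and 7.55 CPM in wild-type libraries 2 and 3, and at 6.36, 6.76 and 8.16 CPM in scl28-3. Wild-type library 1 was therefore the lowest of the 6, and the other 5 libraries did not separate by genotype. The log2 difference was 0.15 (95% interval -0.34 to 0.64), and without wild-type library 1 it turned to -0.12.

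Among the receptors, GID1A had the largest log2 difference of the 9 members. Its levels were 8.21, 6.54 and 7.98 CPM in wild type, on 68 to 95 reads, and 10.43, 10.56 and 11.44 CPM in scl28-3, on 146 to 192 reads. Every mutant library lay above every wild-type library, and the means were 7.58 ± 0.905 and 10.8 ± 0.549 CPM. The log2 difference was 0.47 ± 0.13 (SE), a fold of 1.39, with a 95% interval of 0.19 to 0.75. It ranked number 75 of 17879 genes by p, at 0.00389 before adjustment, and its adjusted p of 0.921 did not pass. Without wild-type library 1 the log2 difference was 0.53.

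GID1B, the receptor described as binding gibberellin most tightly, was at 13.31, 15.96 and 18.25 CPM in the wild-type libraries and 16.15, 14.78 and 17.82 CPM in the scl28-3 libraries. Both the lowest and the highest library were wild type. The log2 difference was 0.02 (95% interval -0.27 to 0.32), and leaving out wild-type library 1 gave -0.10, and leaving out scl28-3 library 3 gave -0.04.

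GID1C, the near relative of GID1A, was at 3.72, 4.71 and 4.3 CPM in wild type, against 3.86, 3.66 and 4.29 CPM in the mutant. The genotypes overlapped, with 43 to 72 reads behind each value, the fewest of any member. Its log2 difference was -0.11 (95% interval -0.46 to 0.24). It was -0.20 with wild-type library 1 left out and -0.03 with wild-type library 2 left out.

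SLY1, the F-box subunit that targets DELLA proteins, was at 16.68, 18.85 and 20.71 CPM in the wild-type libraries and 19.22, 19.21 and 19.37 CPM in the scl28-3 libraries. The mutant libraries lay close together inside the wild-type range. The log2 difference was 0.03 (95% interval -0.21 to 0.26), and it turned to -0.06 without wild-type library 1.

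**Figure D2:**
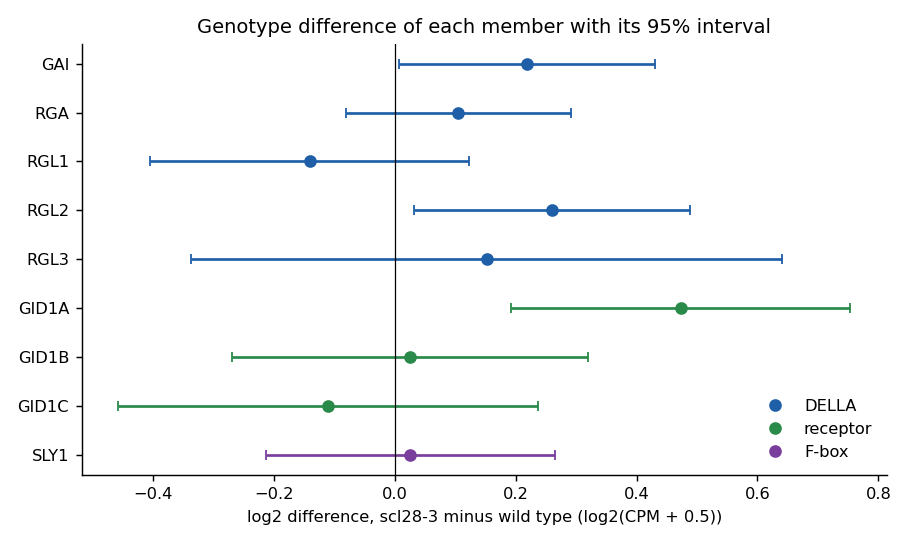
Log2 difference of each member, scl28-3 minus wild type, on the log2(CPM + 0.5) scale (horizontal axis), with its 95% interval from the limma fit over all genes. Blue marks DELLA genes, green receptors and purple SLY1. The intervals of GAI, RGL2 and GID1A lie above 0 before adjustment for the number of genes tested, from 0.01 to 0.43 for GAI, 0.03 to 0.49 for RGL2 and 0.19 to 0.75 for GID1A.

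Wild-type library 1 decided the direction of 3 members. RGL3, GID1B and SLY1 each had their lowest value of the 6 libraries there, in the library with the lowest endodermis marker sum, and all 3 turned lower in scl28-3 without it. With that library left out, 4 of the 9 members were higher in scl28-3 and the median log2 difference was -0.06. GAI, RGL2 and GID1A stayed higher, at 0.25, 0.23 and 0.53. All 9 endodermis markers and all 10 root hair markers had a log2 difference above 0, with median log2 differences of 0.43 and 0.18 and no called gene, and their part in the differences of the members was not tested. Without wild-type library 1 the endodermis median was 0.07, with 7 of 9 higher, and the root hair median 0.16. Leaving out wild-type library 3 moved the root hair median to 0.35, and leaving out scl28-3 library 3 moved it to 0.09. CASP1, which scaffolds the Casparian strip, averaged 58.3 ± 31 and 76 ± 24.6 CPM, and ESB1, needed for that barrier, averaged 69.8 ± 29.8 and 87.7 ± 20.4 CPM.

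Levels were compared between genes per kb of annotated exon, since longer transcripts give more reads. RGA led at 34.7 ± 2.22 CPM per kb (SD over 6 libraries), followed by SLY1 at 15.8 ± 1.09, GAI at 12.6 ± 1.33, RGL2 at 8.96 ± 1.14 and GID1B at 7.87 ± 0.907 CPM per kb. Below them came GID1A at 4.8 ± 0.989, RGL1 at 3.56 ± 0.203, RGL3 at 3 ± 0.635 and GID1C at 2.22 ± 0.223 CPM per kb. The members thus ran from a single abundant DELLA transcript to a receptor at a small fraction of its level, with a log2 ratio of 3.97 between RGA and GID1C.

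RGA stood clear of its neighbour in this order, at 2.2 times SLY1 within a library, and the ranges over 6 libraries did not overlap. GAI also stood clear of RGL2, at 1.41 times, and GID1B of GID1A, at 1.66 times. SLY1 was above GAI in 6 of 6 libraries, by a mean log2 ratio of 0.33 ± 0.18 (SD), although their ranges over libraries overlapped. RGL2 and GID1B could not be ranked, since RGL2 was higher in 4 of 6 libraries and the log2 ratio of 0.19 ± 0.17 was about its own spread. The order among GID1A, RGL1, RGL3 and GID1C was also loose, with each neighbour higher in 5 of 6 libraries and overlapping ranges. With coding length in place of exon length GID1B moved above RGL2, and RGA was at 1.1 times SLY1, still above it in 6 of 6 libraries. Coding sequence makes up 456 of 1204 exon bases in SLY1 and 1764 of 2322 in RGA.

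**Figure D3:**
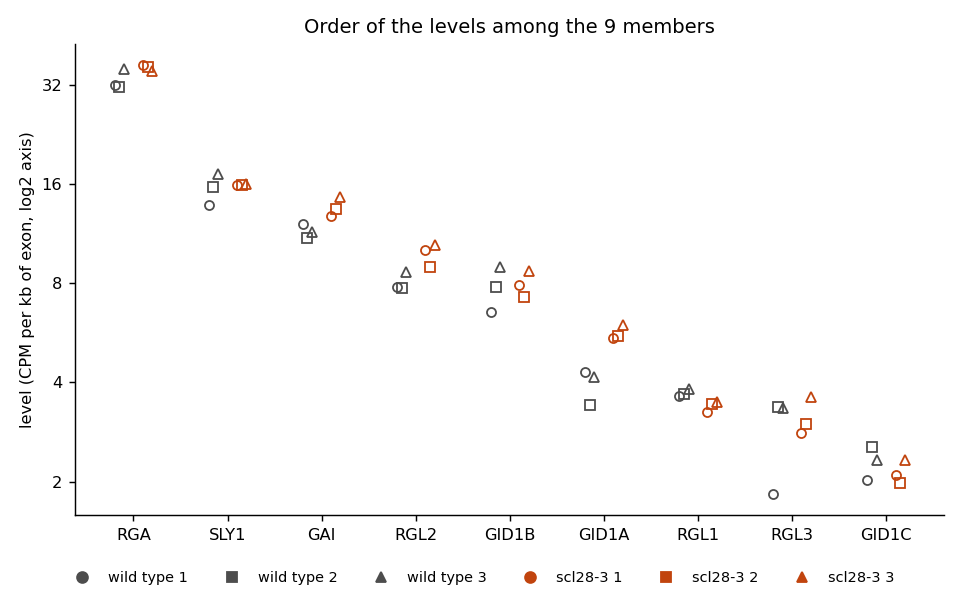
Level of each member in CPM per kb of annotated exon (vertical axis, log2 scale), in the order of the mean over 6 libraries, with wild type in grey and scl28-3 in orange. RGA lies highest at 31.7 to 36.8 CPM per kb, and GID1C lowest on average at 1.98 to 2.55 CPM per kb.

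Summed over the family, DELLA transcripts were at 57.5, 57.5 and 63.2 CPM per kb in wild type and at 65.8, 65.1 and 67.6 CPM per kb in scl28-3. The mutant sums all lay above the wild-type sums, with means of 66.2 ± 1.29 and 59.4 ± 3.28 CPM per kb, a ratio of 1.11. Receptor transcripts summed to 12.8, 13.8 and 15.5 CPM per kb in wild type and to 15.5, 14.8 and 17 CPM per kb in scl28-3, and these overlapped. The balance between the families was close in both genotypes, with 4.24 ± 0.205 times as much DELLA as receptor transcript in wild type and 4.21 ± 0.227 times in scl28-3. Per kb of coding length these ratios were 3.14 ± 0.158 and 3.12 ± 0.164. These sums are descriptions of chosen genes and carry no test. Of all single genes tested, 6.19% had every mutant library above every wild-type library.

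Within the DELLA family RGA made up 55.9 ± 0.852% of the summed level in wild type and 54.6 ± 1.98% in scl28-3. GAI made up 19.5 ± 1.52% and 20.6 ± 1.04%, and RGL2 13.6 ± 0.12% and 14.9 ± 0.966%. The RGL2 shares did not overlap, but only just, with 13.73% in the highest wild-type library and 13.76% in the lowest scl28-3 library. RGL1 had 6.28 ± 0.187% in wild type and 5.14 ± 0.17% in scl28-3, with no overlap between genotypes, and RGL3 had 4.78 ± 1.4% and 4.74 ± 0.546%. The order of the first 3 genes was the same in all 6 libraries.

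Among the receptors GID1A held a larger share in each mutant library than in any wild-type library. GID1A made up 33.4%, 24.8% and 27% of receptor transcript in wild type, against 35.2%, 37.4% and 35.1% in scl28-3. Wild-type library 1, the one that stood apart, was closest to the mutant libraries. GID1C made up 16.4 ± 1.82% in wild type and 13.5 ± 0.0978% in scl28-3, also without overlap, although its CPM values overlapped. GID1B held 55.2 ± 3.78% and 50.5 ± 1.22%. The shares of a family sum to 100%, so a higher share of GID1A lowers the others. All shares come from the same values as the levels above and add no separate evidence.

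**Figure D4:**
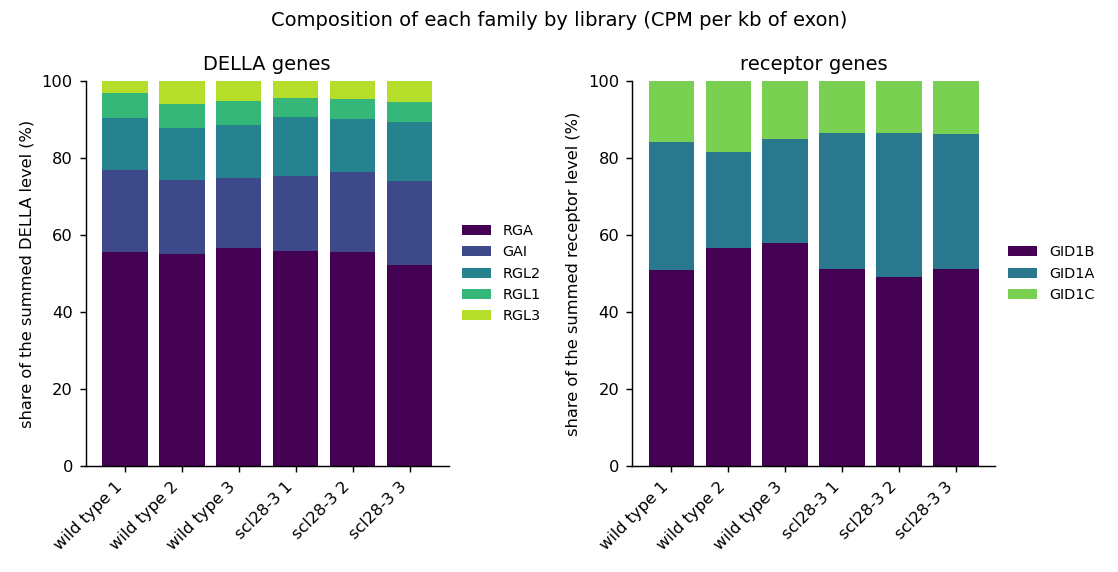
Share of each gene in the summed level of its family (vertical axes, percent of CPM per kb of exon) in each of the 6 libraries, for the 5 DELLA genes (left) and the 3 receptor genes (right). RGA holds over 52% of the DELLA level in every library, and the GID1A share is 24.8% to 33.4% in wild type and 35.1% to 37.4% in scl28-3.

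The remaining genes of the pathway were taken from 6 lists with 96 genes, of which 72 had values and 64 were tested, while 8 did not pass the filter on low values. None was called with limma, edgeR or DESeq2, where the limma fit called 0.0727% of all genes. Of the 64, 44 were higher in scl28-3 and 20 lower, with a median log2 difference of 0.09, against 0.01 for all genes tested. The pathway median was 0.04 without wild-type library 3. Before adjustment 4 had a p under 0.05 with limma and 5 with edgeR, against 4.37% of all genes tested in either fit. DESeq2 gave 4, against 2.7%. The other 24 genes of the lists, among them GA1 of early hormone synthesis, were not analysed here.

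Hormone synthesis held 2 of the 4 genes under 0.05 with limma, with differences of opposite sign. GA20ox2, an oxidase that makes the precursors of active gibberellin, was at 9.68, 5.58 and 9.74 CPM in wild type, against 12.72, 10.63 and 13.29 CPM in the mutant. The mutant libraries were all higher, with a log2 difference of 0.54 ± 0.20 (SE) and a limma p of 0.0205 before adjustment (adjusted p = 0.994). Without wild-type library 2, its lowest, the log2 difference was 0.31. GA3ox1, which carries out the last step to active hormone, was at 15.81, 18.85 and 21.59 CPM in the wild-type libraries and 13.79, 13.51 and 15.73 CPM in the scl28-3 libraries. Here the mutant libraries were all lower, by a narrow gap to wild-type library 1, with a log2 difference of -0.39 ± 0.13 and a limma p of 0.014 before adjustment (adjusted p = 0.994). Of the 9 tested synthesis genes 6 were higher and 3 lower, with a median of 0.09. Leaving out wild-type library 3, scl28-3 library 3 or scl28-3 library 1 lowered that median to 0.01, 0.02 or 0.04.

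GA3, the ent-kaurene oxidase, was at 40.3 ± 2.25 CPM in wild type, against 45.5 ± 1.93 CPM in the mutant, a log2 difference of 0.16 with no overlap between genotypes and a limma p of 0.119 before adjustment. GA2, the ent-kaurene synthase, averaged 15.5 ± 3.06 and 16.6 ± 1.72 CPM, with overlap. Its log2 difference of 0.09 ran from 0.0014 without wild-type library 2 to 0.23 without wild-type library 1.

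Hormone inactivation held few tested genes. Of 4 tested genes 1 was higher and 3 lower, with a median log2 difference of -0.07 and none at a p under 0.05. That median turned to 0.09 without scl28-3 library 1 and to 0.07 without wild-type library 3, with 2 genes higher and 2 lower in each case. ELA1 and ELA2, cytochrome P450 enzymes that inactivate gibberellins, averaged 13.2 ± 0.917 against 12.8 ± 0.974 CPM and, for ELA2, 6.86 ± 0.601 against 5.74 ± 1.25 CPM, and GA2ox6, a gibberellin 2-oxidase, was at 1.33 ± 0.39 against 1.88 ± 0.836 CPM. Of the transporters only NPF3.1, which can carry gibberellin into cells, was tested, at 4.55 ± 0.958 and 5.42 ± 1.44 CPM.

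The machinery that modifies and destroys DELLA proteins was next. Of 13 tested genes 8 were higher and 5 lower, the median log2 difference being 0.01 and none at a p under 0.05. Without wild-type library 3 the split was 5 higher and 8 lower, with a median of -0.01. The SCF subunits ASK1, CUL1 and RBX1, which form the ubiquitin ligase together with SLY1, were at 253 ± 45.6 against 251 ± 12.6, 238 ± 16.3 against 246 ± 4.9, and 89.6 ± 6.92 against 89.9 ± 3.06 CPM.

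The listed partners that bind DELLA proteins are mostly transcription factors and chromatin proteins, with others such as BOI, PFD5 and JAZ1. They had 20 of 26 tested genes higher, with a median log2 difference of 0.14 and none at a p under 0.05. PKL, a chromatin remodeller, was at 99.2 ± 12.8 and 107 ± 12.2 CPM. ARR1, a cytokinin response regulator, was at 81.1 ± 7.9 and 90.2 ± 7.5 CPM, and EIN3, of ethylene signalling, at 81.8 ± 3.85 and 88 ± 2.99 CPM. Leaving out a library left between 38 and 45 of the 64 pathway genes higher in scl28-3, where 49.6% to 52.5% of all genes tested were higher.

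Genes that respond to DELLA proteins or to gibberellin had 8 of 11 tested members higher and 3 lower, with a median log2 difference of 0.09 that went to -0.01 when wild-type library 1 was left out and to -0.02 when scl28-3 library 2 was. IQD22, of a calmodulin-binding family, was at 3.11, 4.62 and 4.04 CPM in the wild-type libraries and 5.93, 5.84 and 5.96 CPM in the scl28-3 libraries, a log2 difference of 0.53 ± 0.16 (SE) with a limma p of 0.00947 before adjustment (adjusted p = 0.994). AT2G31730, annotated as a basic helix-loop-helix protein, was at 0.52, 0.58 and 0.88 CPM in wild type, against 1.07, 1.2 and 1.67 CPM in the mutant, a log2 difference of 0.63 ± 0.24 with a limma p of 0.0266 before adjustment (adjusted p = 0.994). In both genes every mutant library was above every wild-type library, although AT2G31730 rests on few reads and its log2 difference ran from 0.31 with a pseudocount of 2 to 0.98 with edgeR.

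The abundant response genes overlapped between genotypes. GASA4, a small cysteine-rich protein induced by gibberellin, was at 666 ± 38 and 607 ± 38.5 CPM, and EXPA1, an expansin that loosens cell walls, at 53.1 ± 13.3 and 40.9 ± 8.78 CPM. GASA1, of the same family as GASA4, was at 76.3, 185.38 and 266.22 CPM in the wild-type libraries and 183.97, 201.84 and 329.12 CPM in the scl28-3 libraries. Its values were lowest in wild-type library 1 and highest in scl28-3 library 3, as were the sums of the endodermis markers, and without wild-type library 1 its log2 difference went from 0.55 to 0.03. With the library number as a block, the limma p before adjustment was 0.000363 for EXPA1, lower in scl28-3 (adjusted p = 0.0694). In that fit it was 0.00448 for GASA1 (adjusted p = 0.215) and 0.0606 for GASA4, where 11% of all genes tested were under 0.05.

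**Figure D5:**
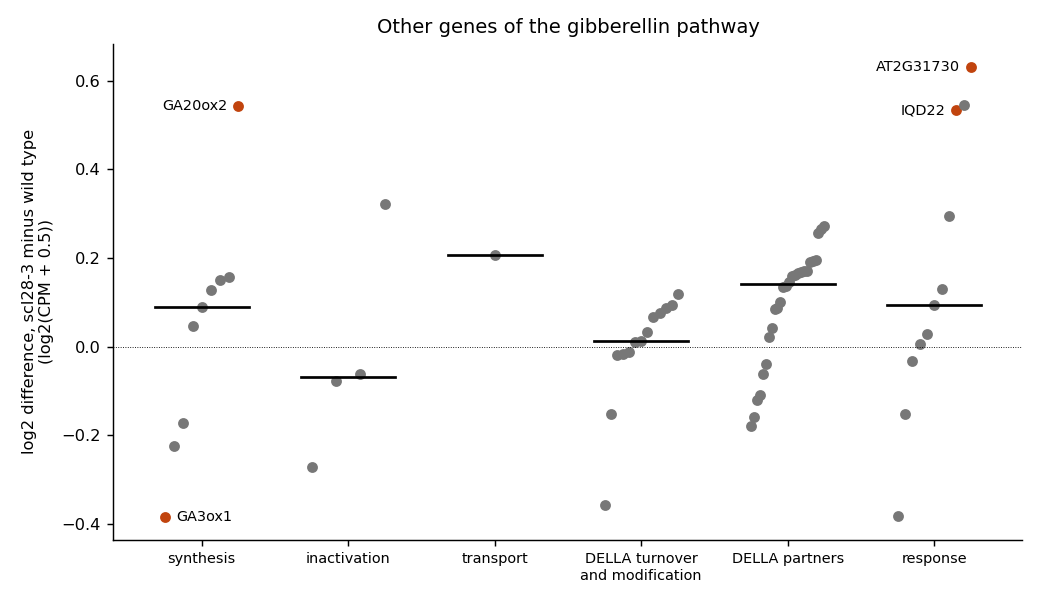
Log2 difference of each tested pathway gene outside the 9 members, scl28-3 minus wild type on the log2(CPM + 0.5) scale (vertical axis), grouped by list. Each point is a gene, black bars are list medians, and orange points with names have a limma p under 0.05 before adjustment. None of the 64 points passed the adjusted threshold, and GA20ox2 at 0.54 and GA3ox1 at -0.39 lie on opposite sides of 0.

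For each member the 2 genes with the most similar profile over the 6 libraries were found among 11686 other genes with a mean of at least 10 CPM. The measure was Pearson's r of log2(CPM + 0.5), given without a test as a description, since with 6 libraries between 41 and 602 genes exceeded an r of 0.9 for a single member. GAI was closest to VEL1 (0.998) and AT2G38660 (0.991), RGA to AT1G54730 (0.967) and AUR3 (0.966), RGL1 to AT1G65370 (0.986) and AT2G41050 (0.982), and RGL2 to AT2G46550 (0.995) and RD21A (0.993). RGL3, with the largest number of similar genes, was closest to LEJ2 (0.997) and AT3G01980 (0.993). GID1A was closest to AT3G25910 (0.994) and MOS2 (0.98), GID1B to AT1G71980 (0.993) and AT5G57340 (0.988), GID1C to AT2G04850 (0.986) and SERK2 (0.984), and SLY1 to RBL4 (0.992) and AT2G38180 (0.989). No gene appeared for more than 1 member.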

How the data were processed

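The authors deposited CPM, counts scaled to library size, per the file headers, rounded to 2 decimals. The submitters' processing notes list TAIR10 as the build, and as tools edgeR, HTSeq 0.6.1p1 and HISAT2 2.0.0. Strand setting and annotation release are not given in the sources used here. Low CPM values of a library are whole multiples of the value of 1 read, and 100% of values gave whole reads within 0.1 read. A count of 3 reads equals 0.179 to 0.288 CPM, and such limits cover counting error only.

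CPM was divided by TMM factors (edgeR 4.0.16), and log2(CPM + 0.5) was fitted with limma 3.58.1 (R 4.3.3, intensity trend). This scale understates changes of low genes. Genes were kept by filterByExpr with a minimum count of 10 on recovered reads. P-values are two-sided and Benjamini-Hochberg adjusted over 17879 genes, with a threshold of 0.05. Levels per kb use the union of annotated exons. Coordinates and sequences are from RefSeq's TAIR10.1, not the build of the notes by name, so none was joined to file coordinates. Alternatives were edgeR's quasi-likelihood test and DESeq2 1.42.0 on recovered reads, other scalings, filters and pseudocounts, a replicate block and leaving out each library. The fits were run on simulated data whose set changes were all larger than the difference of any member. That run does not show how often differences as small as those of the members would be called.

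The 9 members and the lists were chosen with earlier results of these data known, so no list test was made. By rule, the text names beyond the members SCL28, CASP1, ESB1, pathway genes at an unadjusted p under 0.05 and up to 3 of the most abundant tested genes of each pathway list, and the genes with the most similar profile to each member. Those named in the closing observations were chosen after their values were seen.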

Additional observations from a re-analysis of the deposited data

How the results depend on the processing

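No member and no pathway gene was called under any of the 16 alternatives to the limma fit, and SCL28 was called under all 16. GID1A kept its direction, from 0.39 to 0.53 (log2), with adjusted p from 0.165 to 1. GAI ran from 0.17 to 0.25 and RGL2 from 0.21 to 0.32, both above 0 throughout. Among the 28 members and pathway genes named by rule, directions turned in 13 gene and setting pairs of 7 genes, 1 of them with library totals only (RBX1, 0.0067) and the others when a library was left out. Over the fits without a library, the range was -0.12 to 0.30 for RGL3, -0.095 to 0.11 for GID1B, -0.058 to 0.081 for SLY1, -0.18 to 0.061 for ASK1, -0.019 to 0.085 for CUL1, -0.079 to 0.048 for RBX1 and -0.011 to 0.18 for PKL. RGL3, GID1B and SLY1 turned without wild-type library 1, and GID1B also without scl28-3 library 3. ASK1 turned without wild-type library 2 or 3, CUL1 and PKL without wild-type library 3, RBX1 without wild-type library 2, and ASK1, RBX1 and PKL without scl28-3 library 1. The cause was not tested. With coding length the log2 ratio of RGA to GID1C was 3.53 in place of 3.97. The log2 ratio of DELLA to receptor sums differed between genotypes by -0.01, and by -0.05 to 0.03 when a library was left out. Under a replicate block 0 members and 0 pathway genes were called, with 3 and 8 at an unadjusted p under 0.05 in place of 3 and 4, where 11% of all genes tested were, in place of 4.37%. Libraries that share a number deviated together with correlations of 0.441, 0.0438 and 0.498, and those with different numbers with -0.456 to 0.0642. Numbers 1 and 3 were thus above every pair of different numbers. Each gene was centred within its genotype first, so these correlations depend on each other. A positive value for a library forces a negative one with another library of the other genotype. For wild-type library 2 the value with scl28-3 library 3 was 0.0642, about the same as with scl28-3 library 2. The labels do not say that the numbers pair libraries, and pairing was not tested further. Low read numbers limit GID1C, RGL3 and RGL1 most.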

Other observations

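Among the tested DELLA partners, 6 had mutant libraries wholly above the wild-type range and 1 wholly below it, where 6.19% and 4.22% of all genes tested behaved so. These were named after their values were seen, and none passed the adjusted threshold with limma. The higher ones included the zinc-finger factors IDD1 at 28.6 ± 0.943 and 31.1 ± 0.456 CPM, IDD4 at 10.8 ± 0.381 and 12.4 ± 0.781 CPM and IDD5 at 15.5 ± 1.51 and 17.6 ± 0.439 CPM, in wild type and scl28-3. They also included BES1, a transcription factor of brassinosteroid signalling, at 35.2 ± 1.58 and 40.1 ± 1.62 CPM, TCP14 at 10.3 ± 0.422 and 12.6 ± 1.17 CPM, and BRG2 at 6.54 ± 0.584 and 7.65 ± 0.639 CPM. The lower one was JKD, a zinc-finger factor of ground tissue, at 40.7 ± 2.43 and 36.9 ± 0.891 CPM. The zinc-finger factors GAF1, MGP and BIB of the same list overlapped between genotypes, with log2 differences of 0.27, 0.02 and -0.18.

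SNE, the F-box relative of SLY1, was far less abundant than SLY1, at 2.51 ± 0.39 CPM in wild type against 1.91 ± 0.544 CPM in the mutant, and the genotypes overlapped. SNE was also named after its values were seen.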
